A study of Rattus norvegicus with 64 samples.

Results

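The lungs described here came from rats killed 7 days after they had inhaled sand dust of the kind used in hydraulic fracturing, at 10 mg/m3, and from rats that had inhaled filtered air in the same study. They were chosen by the labels alone, as every dust and every air library of day 7 in the 10 mg/m3 study, and make up 10 of the 64 libraries of the series. The dust group holds 5 rats, numbered 43, 44, 45, 47 and 48 in their titles, and the air group holds 5, numbered 33, 34, 36, 37 and 39. All were male Sprague-Dawley rats, an outbred strain, on a light-dark cycle; their age is not given. Exposure of both groups lasted 6 hours on each of 4 days, and the whole animal was in the chamber. A piece of each lung gave the RNA, which was depleted of ribosomal RNA, so the cell types of the whole organ are mixed in each library. Rats were housed in pairs, and the labels do not say which rats shared a cage. Title numbers of the dust rats all lie above those of the air rats, so anything that followed that numbering cannot be told apart from dust. Separate rats of the same study were killed on day 1 (5 dust, 5 air) and day 27 (4 dust, 4 air), and a second study used 30 mg/m3 with air rats of its own (6 dust, 6 air on day 7).

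Respirable crystalline silica, the main mineral of such sand, is taken up by alveolar macrophages, where it can damage lysosomes, activate the inflammasome and release interleukins. Chemokines then draw neutrophils and monocytes, and repeated or heavy exposure can lead to granulomas and collagen deposition. Genes of these steps are given below by role, followed by markers of the resident and admixed cells of the lung.

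No gene passed the test between dust and air on day 7 at 10 mg/m3. Of 15668 genes tested with edgeR's quasi-likelihood F test, 0 passed an adjusted p of 0.05 (0% called), in either direction, and the smallest adjusted p was 0.996. Without adjustment, 620 genes had a p under 0.05 (3.96%), of which 264 had a higher level with dust (1.68%) and 356 a lower one (2.27%). The counts for the other tools were 0 called and 622 with unadjusted p below 0.05 in DESeq2, and 0 called and 669 below 0.05 in limma voom. In 213 genes the dust and air rats did not overlap (1.36%), with all dust rats above all air rats in 79 (0.504%) and below them in 134 (0.855%). The median log2 fold change over all genes was -0.01, and 48% of genes had one above 0.

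These counts rest on a fit whose precision can be stated. The standard error of a log2 fold change had a median of 0.14. Its 95% interval lay between -1 and 1 for 13971 genes (89.2%), and between -0.5 and 0.5 for 9914 (63.3%). Intervals were mostly narrower for more abundant genes, but abundant genes with a large spread between rats had wide ones. Levels are given as CPM, reads of a gene per 1000000 counts of the library after scaling by the TMM factors of the fit. Among 2430 genes above 100 CPM, 99.4% had an interval between -1 and 1, against 17.3% of the 480 genes under 1 CPM. For the rest of the genes under 1 CPM the interval reached past 1 log2 unit on at least 1 side.

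The libraries read as lung. Sftpc, the surfactant protein of alveolar type 2 cells, stood at 7201 to 8729.97 CPM in dust lungs and 6698 to 11192 CPM in air lungs. Ager, of alveolar type 1 cells, ran at 1412 to 1709.5 CPM with dust and 1404 to 1529 CPM with air. Scgb1a1, of club cells, ran at 2209.7 to 2587 CPM with dust and 1401 to 2669.7 CPM with air. Pecam1, of endothelium, ran at 261 to 296 CPM with dust and 223 to 338 CPM with air, so each of these lung cell types was marked in every library. Foxj1, of ciliated cells, ran at 20.1 to 29.01 CPM in dust lungs and 11.8 to 32.04 CPM in air lungs. Marco, a scavenger receptor of alveolar macrophages, was the exception, at 0 to 0.162 CPM with dust and 0 to 0.123 CPM with air, and was not tested. Library totals ran from 6180793 to 9199091 counts over the 10 libraries, and neither the total, the number of genes with a count, the share of mitochondrial ribosomal RNA, the share of the 10 largest genes nor the Alb level differed between groups beyond the spread between rats (exact two-sided permutation test, adjusted p of 0.794 or above). The mitochondrial ribosomal RNA share was 0.483 percentage points higher with dust, and 1.19 without air rat 37 (exact permutation test, adjusted p = 0.119).

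The 8 genes followed as a panel for dust inflammation, stress and epithelial state held 0 that passed. Ccl2, which attracts monocytes, was at 4.32, 2.92, 2.02, 3.62 and 3.62 CPM in dust rats and 6.89, 5.64, 6.57, 2.23 and 3.17 CPM in air rats, a log2 fold change of -0.57 (95% interval -1.11 to -0.04; unadjusted p = 0.0377, adjusted p = 0.996, edgeR). Its lowest values were in dust rats 45 and 44 and air rat 37, so the groups overlapped although 3 air rats lay above every dust rat. Il1b, the cytokine released by the inflammasome, was at 20.3, 16.5, 16.0005, 13.98 and 20.4 CPM with dust against 18.3, 14.2, 15.5, 10.4 and 16.6 CPM with air. All but air rat 37 lay within 13.98 to 20.4 CPM, and the log2 fold change was 0.21 (-0.11 to 0.54). Cxcl1, a neutrophil attractant, was at 22.3, 14.3, 13.04, 11.9 and 19.4 CPM in dust rats and at 17.8, 12.7, 14.3, 23.3 and 7.26 CPM in air rats, where rats 37 and 39 gave both extremes. Lcn2, an iron-sequestering protein of neutrophils and stressed epithelium, was at 88.1, 91.9, 127, 113 and 166 CPM with dust against 93.3, 60.9, 146, 67.6 and 50.5 CPM with air, where air rat 36 was the second highest of the 10 rats.

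For 3 further panel genes air rat 36 was the highest of all 10 rats. Hmox1, which degrades haem and responds to oxidants, was at 32.9, 31.8, 29.04, 35.2 and 48.4 CPM in dust rats and 26.2, 44.4, 60.01, 23.7 and 25.1 CPM in air rats, with a log2 fold change of -0.02 (-0.54 to 0.49). Spp1, osteopontin, was at 5.48, 9.08, 6.32, 12.9 and 13.3 CPM with dust and 5.66, 3.35, 20.04, 6.54 and 5.33 CPM with air. Mmp12, the macrophage elastase, was at 1.28, 2.59, 4.17, 2.59 and 4.05 CPM with dust and 4.67, 2.15, 9.91, 2.55 and 1.59 CPM with air. Without that rat the log2 fold change was 0.25 for Hmox1, 0.85 for Spp1 and 0.09 for Mmp12, against -0.02, 0.18 and -0.54 with it, and none passed. Sftpc had a log2 fold change of -0.12 (-0.40 to 0.17), so a difference of 0.5 log2 units lay outside the interval.

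**Figure D1:**
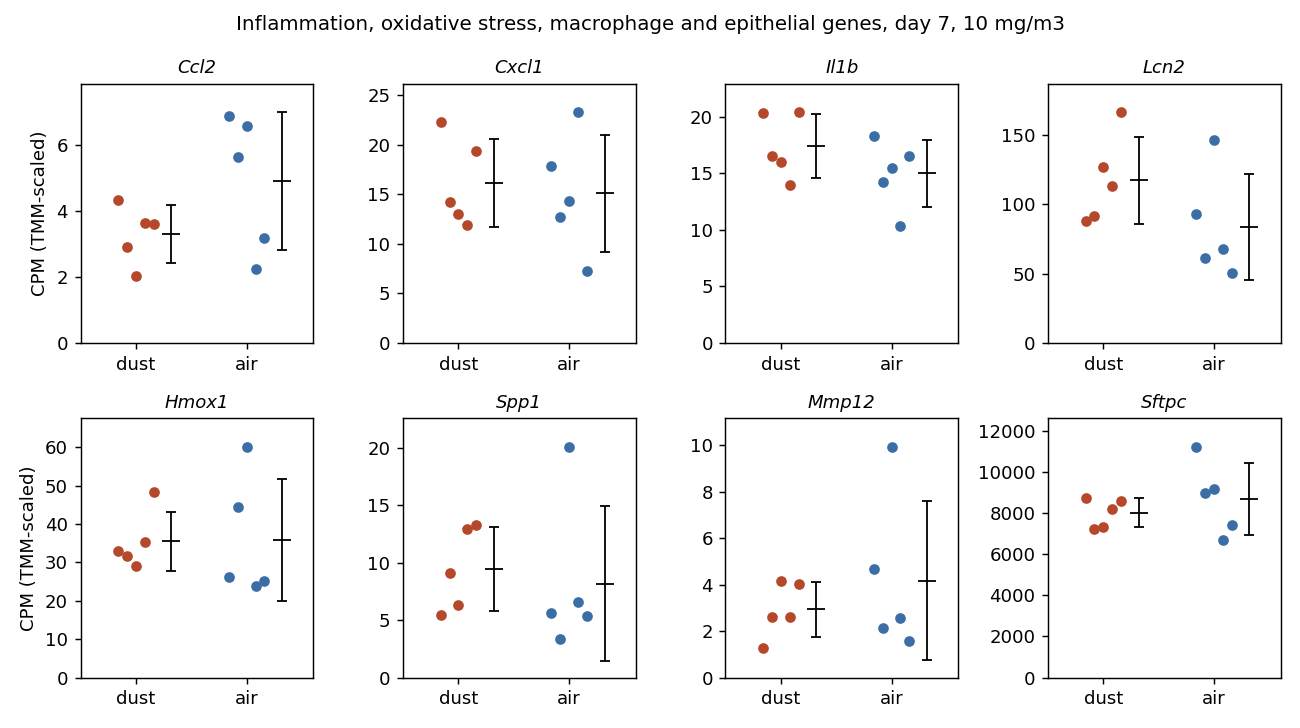
Level of the 8 panel genes in each rat, in TMM-scaled CPM on a linear axis from 0; points are rats (5 dust on the left, 5 air on the right), and bars show the mean with its SD. Dust and air points overlap in every panel, and the highest air point for Hmox1, Spp1, Mmp12 and Lcn2 is rat 36.

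Neutrophil markers were sampled by 17 genes, of which 13 were tested and 0 passed. Their log2 fold change was above 0 in 12 of the 13, beside 48% of all genes, with a median of 0.29 beside -0.01 over all genes. Of the 13, 1 had an unadjusted p under 0.05, beside 3.96% of all genes. Cd177, a surface protein of neutrophils, was at 2.92, 3.08, 2.02, 2.59 and 2.603 CPM in dust rats and 0.984, 0.537, 1.08, 3.03 and 0.113 CPM in air rats. The 5 dust rats lay close together, while the air rats spread from near 0 to the level of the dust rats in rat 37 (log2 fold change 1.26, 0.15 to 2.38). The chemokine receptor gene Cxcr1 was at 7.82, 9.56, 6.19, 7.64 and 10.3 CPM with dust against 6.39, 6.71, 7.76, 6.22 and 4.08 CPM with air. Its relative Cxcr2 was at 12.1, 11.7, 9.95, 8.41 and 14.9 CPM with dust against 9.1005, 8.72, 9.91, 10.2 and 8.84 CPM with air. Both overlapped between groups, with log2 fold changes of 0.41 and 0.29. Summed over the list, the level ran from 252 to 387 CPM in dust rats and from 177 to 311 CPM in air rats. In a tissue library, fewer cells of a type and less RNA per cell cannot be told apart.

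Chemokines and cytokines beyond the panel recruit and activate leukocytes. Of 28 listed, 21 were tested and 0 passed, 12 had a log2 fold change above 0 and the median was 0.08. Cxcl6 had 2.801, 0.648, 1.34, 0.647 and 2.603 CPM in dust rats and 0.738, 0.537, 0.9696, 1.43 and 0.567 CPM in air rats. Ccl17, a type 2 chemokine, had 0.817, 0, 0.403, 0.388 and 0.578 CPM in dust rats and 1.84, 1.34, 1.08, 0 and 0.227 CPM in air rats, and both genes overlapped between groups. The inflammasome and interleukin-1 list was tighter: its 15 members had log2 fold changes from -0.24 to 0.21, and the interval of all 15 lay between -1 and 1. Casp4, the inflammatory caspase that senses lipopolysaccharide, was at 25.1, 26.6, 30.4, 28.9 and 22.99 CPM with dust against 31.9, 37.6, 31.03, 29.01 and 29.3 CPM with air (-0.24, -0.55 to 0.06). Nek7, a partner of the NLRP3 sensor, was at 172, 185, 176, 182 and 172 CPM with dust and 163, 170.4, 167, 158 and 168 CPM with air, a difference of 0.10 on the log2 scale without overlap of the groups (213 genes, 1.36%, did not overlap). Among 16 NF-kB subunits and feedback genes, log2 fold changes spanned -0.12 to 0.15 and 15 intervals lay between -0.5 and 0.5. Tnip1, which restrains NF-kB, had 0.13 (-0.01 to 0.27) and the subunit gene Rela 0.15 (-0.07 to 0.37).

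Macrophage activation and repair genes had small positive log2 fold changes in 13 of 16 members, with a median of 0.14. The median was 0.06 without air rat 39. Of the 16, 0 passed and 2 had an unadjusted p under 0.05, beside 3.96% of all genes. Ctsd, the lysosomal protease cathepsin D, was at 611, 635, 516, 669.6 and 614 CPM in dust rats and 513, 457, 539, 409.96 and 458 CPM in air rats. Air rat 36 lay above dust rat 45, the only crossing between the groups (log2 fold change 0.36, 0.12 to 0.60). Arg1, the arginase of repair macrophages, was at 7.58, 7.94, 5.92, 8.28 and 5.78 CPM with dust against 5.66, 4.56, 6.79, 3.51 and 3.402 CPM with air. Gpnmb, a glycoprotein of lipid-laden macrophages, was at 144, 170.2, 120.2, 152 and 154 CPM with dust against 129, 99.8, 149, 94.999 and 84.6 CPM with air. Air rat 36 was the highest air rat for all 3 genes, and it overlapped the dust group in each. The lysosome list, 19 genes, had a median of 0.06 with every interval between -1 and 1. Its member Gaa, acid alpha-glucosidase, was at 26.96, 33.7, 31.9, 35.1 and 37.9 CPM with dust and 25.9, 23.6, 24.2, 30.6 and 25.97 CPM with air. Glb1, beta-galactosidase, was at 40.7, 41.97, 41.7, 41.3 and 47.9 CPM with dust and 41.6, 41.997, 45.1, 35.1 and 35.04 CPM with air. Gaa had a log2 fold change of 0.34 (0.08 to 0.61) and Glb1 of 0.10 (-0.07 to 0.27). Alveolar macrophage markers (10 tested, 5 above 0, median -0.01) and markers of monocytes and interstitial macrophages (12 tested, 5 above 0, median -0.06) showed no common direction.

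Oxidant, acute phase and stress genes were read as separate lists, and 0 genes passed in any. Of 19 tested NRF2 targets, 12 lay above 0, the median was 0.05 and every interval lay between -1 and 1. Ftl1, the ferritin light chain, was at 89.9, 105, 87.5, 131 and 119 CPM in dust rats and 72.8, 60.9, 129, 63.6 and 73.1 CPM in air rats, where air rat 36 reached the dust range and the other 4 did not. Txnrd1, thioredoxin reductase, was at 93.6, 83.3, 88.1, 89.7 and 89.1 CPM with dust and 82.6, 76.3, 82.8, 77.8 and 78.5 CPM with air, without overlap but by only 0.16 on the log2 scale (-0.01 to 0.33). Osgin1 had a log2 fold change of 0.30 (0.02 to 0.59). In the acute phase list 8 of 9 tested members lay above 0, with a median of 0.25, and of 0.02 with a cardiac muscle score (the mean log2 CPM of heart muscle genes) as a covariate. Its complement gene C3 was at 289.6, 287, 265, 352 and 322 CPM with dust against 264, 187, 256, 283 and 170.2 CPM with air, where 2 of the 5 air rats lay below every other rat. Heat shock chaperones (18 tested, 9 above 0, median -0.01) and the integrated stress response (17 tested, 10 above 0, median below 0.01) were balanced. Their smallest p belonged to Chordc1, an HSP90 co-chaperone (-0.24, -0.45 to -0.03), and to Phgdh, of serine synthesis (0.67, 0.18 to 1.17).

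The genes with the smallest unadjusted p are given as values that did not pass. The smallest p of all genes was that of Dlg3, a scaffold protein of cell junctions and synapses, which was at 64.2, 70.2, 70.2, 68.6 and 62.2 CPM in dust rats against 82.03, 96.1, 87.9, 86.4 and 76.99 CPM in air rats. Every dust rat lay below every air rat, by a log2 fold change of -0.36 (-0.52 to -0.19; unadjusted p = 0.000161, adjusted p = 0.996, edgeR). Abcb1b, which encodes P-glycoprotein, a drug efflux pump, was at 15.99, 12.6, 22.9, 17.6 and 15.9 CPM with dust against 64.7, 24.96, 62.9, 20.6 and 20.5 CPM with air. Air rats 33 and 36 stood far above the other 8 rats, which shared a range of 12.6 to 24.96 CPM (log2 fold change -1.19, -1.84 to -0.54). Cftr, the chloride channel of epithelial secretion, was at 15.3, 15.6, 12.2, 17.5 and 13.02 CPM in dust rats and 18.8, 23.1, 22.6, 19.4 and 20.3 CPM in air rats without overlap (-0.50, -0.83 to -0.18). Lepr, the leptin receptor, was at 24.4, 20.7, 32.7, 27.2 and 24.3 CPM with dust and 41.2, 37.7, 46.1, 27.3 and 37.9 CPM with air, and air rat 37 alone lay within the dust range. Of the other 6 in this direction, the co-chaperone Dnajc12 (-0.61), the nucleotide sugar transporter Slc35d2 (-0.35) and the calcium release channel Ryr3 (-0.48) had no overlap between groups. The carboxypeptidase Cpvl (-0.74), the sumoylation factor Rwdd3 (-0.43) and the splicing factor Prpf4 (-0.25) overlapped.

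In the other direction, Oas1k, of the interferon-induced oligoadenylate synthetase family, was at 6.88, 6.48, 4.57, 4.53 and 6.51 CPM in dust rats and 4.796, 1.07, 2.91, 3.03 and 2.61 CPM in air rats. Air rat 33 overlapped the dust rats, and the log2 fold change was 1.00 (0.48 to 1.52; unadjusted p = 0.000521, adjusted p = 0.996, edgeR). Oas1 genes are near-identical copies of each other, so reads could be split between them and the level of Oas1k is uncertain. Ltk, a receptor tyrosine kinase, had the widest interval of these genes, at 5.37, 6.48, 5.24, 7.51 and 1.01 CPM with dust and 0.861, 0.268, 3.77, 2.07 and 0.227 CPM with air (1.81, 0.70 to 2.92). Dust rat 48 lay inside the air range. Bcat1, of branched-chain amino acid breakdown (0.55), the transcription factor Osr1 (0.64), the thiamine triphosphatase Thtpa (0.31) and the adaptor Apba3 (0.30) had every dust rat above every air rat, and the short-chain acyl-CoA dehydrogenase Acads (0.29) did not.

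**Figure D2:**
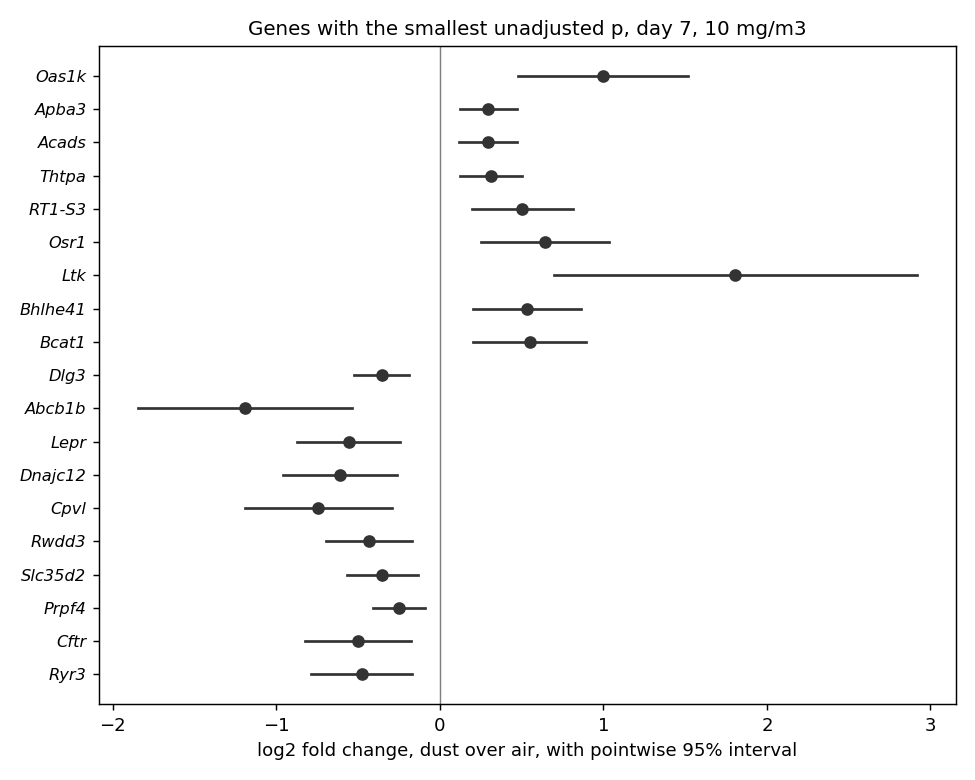
Log2 fold change of dust over air (x axis) with its pointwise 95% interval for the genes described here among the 10 of smallest unadjusted p in each direction, of those with a mean of at least 1 CPM. The intervals exclude 0 because the genes were picked by their p; the smallest adjusted p of any gene was 0.996.

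Interferon response genes beside Oas1k lay near the median of all genes. Of 38 interferon response genes tested, 23 lay above 0, the median was 0.03, and 36 intervals lay between -1 and 1. Of the 38, 1 had an unadjusted p under 0.05, beside 3.96% of all genes. Stat2, a transducer of the interferon signal, had 0.14 (-0.09 to 0.37) and Ddx58, the RNA sensor RIG-I, 0.12 (-0.13 to 0.37). The rat class I MHC genes were uneven. RT1-A2, a classical class I gene, was at 154, 133, 75.7, 130.1 and 70.4 CPM in dust rats and 56.1, 47.4, 86.8, 42.4 and 54.3 CPM in air rats. RT1-S3, a non-classical one, was at 254, 208, 241, 201 and 269.99 CPM in dust rats and 143, 181, 147, 180.3 and 177 CPM in air rats. Dust rats 43, 44 and 47 were the highest for RT1-A2, while dust rats 45 and 48 overlapped air rat 36; RT1-S3 had no overlap. The log2 fold changes were 0.97 (0.32 to 1.62) and 0.50 (0.20 to 0.81). RT1 genes are many, alike and variable between outbred animals, so their counts are uncertain. The antigen presentation list around RT1-A2 had a median of 0.09 over 17 genes, with -0.48 (-1.15 to 0.19) for the peptide transporter Tap2 and 0.16 (-0.07 to 0.39) for Tapbp, which loads peptides onto class I molecules.

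The circadian clock list held the most members with an unadjusted p under 0.05, 6 of 16 tested, 5 with a higher and 1 with a lower level, beside 3.96% of all genes; 0 of the 16 passed. In the mammalian clock, BMAL1 (encoded by Arntl) and CLOCK bind E-box elements and drive the Per genes, the repressors Bhlhe40 and Bhlhe41, and the nuclear receptors Nr1d1 and Nr1d2. NR1D1 and NR1D2 bind an element of their own and repress Arntl, while DBP and TEF bind D-box elements, so the arms peak at different hours of the day. The labels give no hour of collection. Promoter windows of 4 list members are printed because each holds the textbook element of one arm. They are from RefSeq, build GRCr8, spanning the annotated start of each gene, 5′ to 3′ on the gene's strand. Capitals mark the element: the E-box CACGTG in Bhlhe41 (chr4:180569306-180569605, minus strand) and Tef (chr7:115206577-115206876, plus strand), the D-box TTATGTAA in Per2 (chr9:99496944-99497243, minus strand), and the NR1D1 and ROR element (AA, any base, then TAGGTCA) in Bmal1, as RefSeq now names Arntl (chr1:176766078-176766377, plus strand).
Bhlhe41: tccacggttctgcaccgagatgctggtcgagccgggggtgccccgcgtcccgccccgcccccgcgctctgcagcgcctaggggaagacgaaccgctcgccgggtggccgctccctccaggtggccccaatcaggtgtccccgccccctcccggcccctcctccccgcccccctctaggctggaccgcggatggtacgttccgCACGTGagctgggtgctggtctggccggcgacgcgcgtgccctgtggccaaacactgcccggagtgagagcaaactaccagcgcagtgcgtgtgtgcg
Tef: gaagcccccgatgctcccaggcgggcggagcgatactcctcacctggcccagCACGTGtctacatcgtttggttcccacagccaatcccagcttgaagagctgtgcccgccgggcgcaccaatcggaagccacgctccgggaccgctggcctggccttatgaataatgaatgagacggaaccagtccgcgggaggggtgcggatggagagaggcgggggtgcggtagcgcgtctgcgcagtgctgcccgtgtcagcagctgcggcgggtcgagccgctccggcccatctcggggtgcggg
Per2: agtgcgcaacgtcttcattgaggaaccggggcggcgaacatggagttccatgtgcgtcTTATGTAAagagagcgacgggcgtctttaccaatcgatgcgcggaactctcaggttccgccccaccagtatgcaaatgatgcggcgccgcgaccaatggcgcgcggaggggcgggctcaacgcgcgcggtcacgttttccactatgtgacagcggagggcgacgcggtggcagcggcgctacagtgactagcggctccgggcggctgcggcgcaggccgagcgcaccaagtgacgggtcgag
Bmal1: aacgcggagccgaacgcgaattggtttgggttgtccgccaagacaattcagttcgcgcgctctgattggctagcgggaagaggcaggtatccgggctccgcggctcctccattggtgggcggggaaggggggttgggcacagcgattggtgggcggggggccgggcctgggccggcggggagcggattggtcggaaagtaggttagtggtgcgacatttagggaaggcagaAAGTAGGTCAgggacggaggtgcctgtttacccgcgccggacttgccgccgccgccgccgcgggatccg
Of the 18 listed genes, 15 had a promoter window in the RefSeq table. Searched on both strands, CACGTG was in 4 of these 15 (Bhlhe40, Bhlhe41, Ciart and Tef) and in 6.65% of all 27457 windows. TTATGTAA was in 1 of the 15 and 0.881% of all windows, and the NR1D1 and ROR element in 1 of the 15 and 0.222%. No match overlapped another motif. A match describes the letters and says nothing on binding.

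Bhlhe41 was at 14.003, 18.5, 13.6, 19.03 and 16.6 CPM in dust rats and 10.8, 9.53, 13.3, 12.3 and 10.5 CPM in air rats. All dust rats lay above all air rats, the closest being dust rat 45 and air rat 36 (log2 fold change 0.53, 0.20 to 0.86). Per2, a repressor of BMAL1, was at 13.4, 13.5, 16.8, 27.2 and 18.8 CPM with dust against 11.2, 12.9, 9.59, 15.5 and 12.8 CPM with air. Tef, a D-box activator, was at 107, 105, 112, 157 and 133 CPM with dust against 90.02, 104, 84.6, 84.6 and 122 CPM with air. Dust rat 47 was the highest rat for both, and the groups overlapped (0.54, 0.11 to 0.98, for Per2; 0.34, 0.07 to 0.61, for Tef). The 3 remaining members with an unadjusted p under 0.05, and Nr1d1, were singled out after their values were seen. Dbp was at 3.97, 7.13, 11.97, 36.2 and 19.2 CPM in dust rats and 4.43, 7.25, 5.39, 7.81 and 12.1 CPM in air rats. Dust rats 47 and 48 exceeded every air rat and dust rat 43 was the lowest of all 10, so the groups overlapped (1.09, 0.16 to 2.01). Without dust rat 47 the log2 fold change of Dbp was 0.50, and with the cardiac score as a covariate it was 0.62. Nr1d1 was at 12.8, 33.5, 53.5, 89.7 and 77.9 CPM with dust and 6.15, 4.83, 7.86, 31.2 and 60.7 CPM with air. Nr1d2 was at 61.6, 99.99, 134, 183 and 156 CPM with dust and 56.2, 56.6, 65.4, 78.4 and 126 CPM with air. Air rat 39 stood with the dust rats for both, and dust rat 43 with the air rats (1.27, -0.11 to 2.65, for Nr1d1; 0.73, 0.11 to 1.35, for Nr1d2). Arntl, of the opposite arm, was at 66.98, 60.8, 53.1, 39.1 and 52.6 CPM with dust and 75.4, 67.9, 73.3, 64.4 and 51.8 CPM with air (-0.29, -0.56 to -0.01). Its lowest value was in dust rat 47 and its highest in air rat 33, and air rats 37 and 39 lay inside the dust range.

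**Figure D3:**
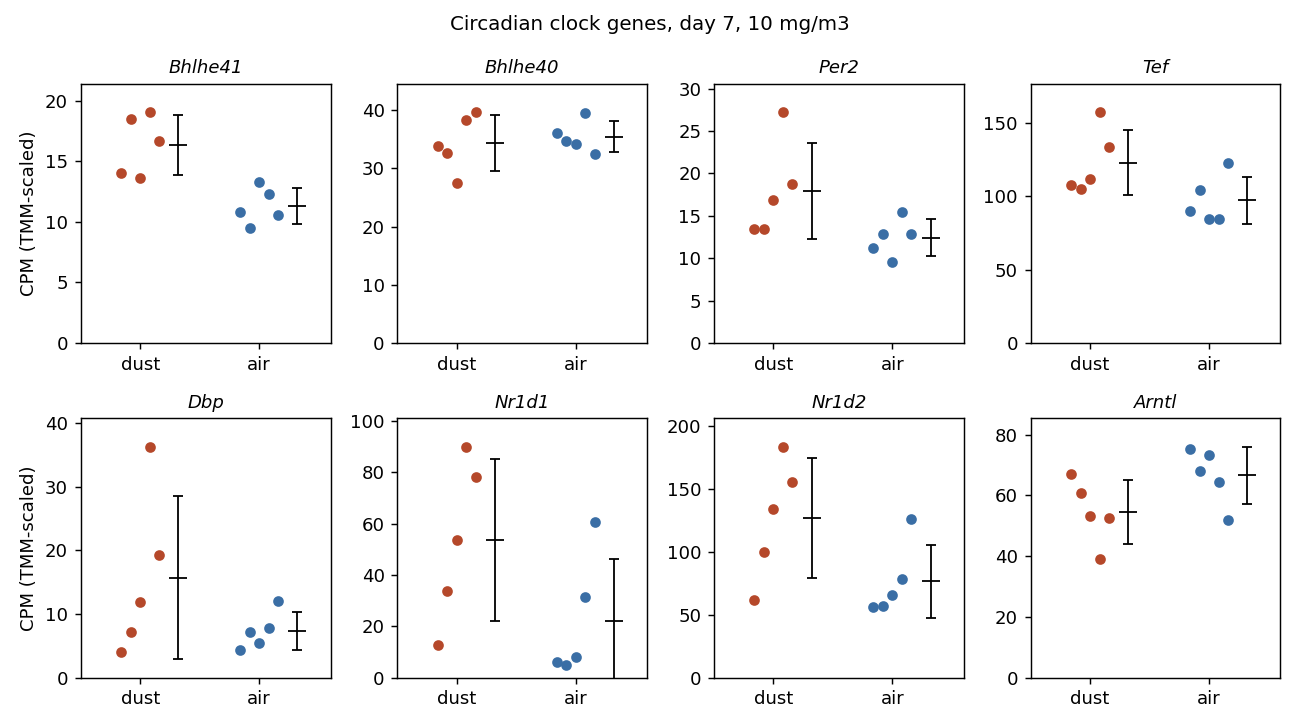
Level of 8 circadian clock genes in each rat, in TMM-scaled CPM on a linear axis from 0, with 5 dust rats on the left, 5 air rats on the right, and the mean with its SD. Dbp, Nr1d1 and Nr1d2 spread widely within both groups, and Bhlhe41 is the only gene of the 8 whose dust rats all lie above the air rats. The SD of Nr1d1 in air rats exceeds its mean, so its bar is ended by the axis at 0.

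Of these clock genes, only Arntl and Dbp are set side by side here over the other groups, with other rats and other controls at each. Both passed on day 1, so they do not stand for the rest of the list. Arntl had a dust minus air log2 fold change of -0.92 on day 1, -0.29 on day 7 and -0.70 on day 27 at 10 mg/m3. For Dbp, whose day 7 value was smaller without dust rat 47, the values were 2.41 on day 1, 1.09 on day 7 and 1.74 on day 27. Arntl and Dbp passed on day 1 (adjusted p 0.00363 and 0.0388, edgeR) and not on day 7 or day 27. The difference between the day 7 and day 1 effects was 0.63 for Arntl (0.24 to 1.02) and -1.33 for Dbp (-2.63 to -0.03), and neither passed. At 30 mg/m3 on day 7 the effects were 0.06 for Arntl and -0.08 for Dbp.

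Airway epithelial genes lay above 0 as lists but not past the test. Of 25 ciliated cell genes tested, 22 had a log2 fold change above 0, with a median of 0.25, and of 16 secretory and club cell genes 13 did, with a median of 0.53; 0 genes of either list passed and 0 had an unadjusted p under 0.05. Ccdc40, an assembly factor of cilia, was at 19.3, 20.6, 18.02, 19.3 and 19.8 CPM in dust rats and 11.7, 9.53, 9.37, 24.1 and 13.04 CPM in air rats. The dust rats were alike and air rat 37 was the highest rat of all (0.53, -0.03 to 1.10). The axonemal genes Dnah5 (0.39, -0.24 to 1.02) and Tekt4 (0.35, -0.21 to 0.91) overlapped. Pigr, which carries IgA across the epithelium, was at 920.5, 990.1, 917, 1166 and 1146 CPM with dust against 857, 763, 856, 944 and 642 CPM with air. Scgb3a1 and Bpifa1, secreted by larger airways and glands, had the highest fold changes of the list. Scgb3a1 was at 2.1004, 121, 3.76, 12.3 and 4.48 CPM with dust and 3.44, 0.537, 0.754, 14.03 and 0.454 CPM with air. Bpifa1 was at 0.934, 23.3, 0.807, 3.62 and 0.145 CPM with dust and 0.123, 0.268, 0, 2.23 and 0 CPM with air. Dust rat 44 and air rat 37 were the highest of their groups for both, and without dust rat 44 the log2 fold change of Scgb3a1 was 0.70 against 3.00 with it. With the cardiac muscle score as a covariate, the median was -0.05 for the ciliated list and 0.02 for the secretory list.

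No alveolar gene passed the test, and their intervals were narrow. All 21 alveolar type 2 and surfactant genes and all 18 alveolar type 1 genes had an interval between -1 and 1, with medians of 0.06 for both lists. With the cardiac score as a covariate the type 1 median was 0.15. Lyz2, lysozyme, was at 7668, 7504, 7034, 7624 and 7852 CPM in dust rats and 12339.6, 7778, 11447, 9023 and 5859 CPM in air rats. The dust rats were within a narrow range and the air rats spread to both sides of it (-0.30, -0.65 to 0.05). Muc1, a membrane mucin, had 0.18 (-0.07 to 0.44) and Fasn, the fatty acid synthase that feeds surfactant lipid, 0.15 (-0.10 to 0.41). Of the type 1 cell, the water channel Aqp5 had 0.19 (-0.10 to 0.48), the membrane protein Emp2 0.12 (-0.04 to 0.28) and the tight junction gene Cldn18 0.24 (-0.13 to 0.61).

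In the immune cell lists outside the neutrophils 0 genes passed. An unadjusted p under 0.05 was found for 2 of 23 T cell, 2 of 15 B cell and 2 of 7 eosinophil and type 2 genes. It was found for 0 of 11 mast cell and basophil and 0 of 15 natural killer and cytotoxic genes, beside 3.96% of all genes. T cell markers had 18 of 23 above 0 and a median of 0.15. The co-receptor gene Cd8b was at 3.85, 3.403, 5.38, 2.98 and 3.76 CPM with dust against 2.83, 2.55, 2.91, 2.55 and 3.29 CPM with air (0.45, 0.08 to 0.82), the T cell transcription factor Bcl11b had 0.43 (0.07 to 0.78), and the integrin Itgae lay on the other side (-0.29, -0.58 to 0.01). B cell markers had a median of 0.07 over 15 genes, while the signalling adaptors Bank1 (-0.51, -0.88 to -0.14) and Blnk (-0.36, -0.67 to -0.05) were the members of smallest p and both below 0. Bank1 was at 48.3, 45.1, 49.3, 49.2 and 42.1 CPM in dust rats and 56.3, 82.7, 82.1, 46.1 and 65.1 CPM in air rats, where rat 37 alone lay within the dust range. Mast cell and basophil markers had 1 of 11 above 0 and a median of -0.23, which was -0.04 without air rat 33 and -0.40 without air rat 37. Kit, the stem cell factor receptor, was at 275, 320.2, 420.2, 360.1 and 369 CPM with dust and 340.04, 405, 389, 369 and 479.7 CPM with air. The protease gene Mcpt2 was at 3.38, 1.62, 2.82, 3.49 and 6.22 CPM with dust and 10.6, 4.03, 4.63, 2.07 and 7.48 CPM with air, and both genes overlapped. Eosinophil and type 2 genes had 2 of 7 tested members above 0 and a median of -0.19, which was -0.02 without air rat 36. Ccr3, the eotaxin receptor, was at 19.7, 11.8, 5.78, 7.38 and 7.23 CPM with dust against 5.04, 4.16, 5.82, 7.65 and 5.33 CPM with air, and dust rat 43 was the highest of all rats (0.90, 0.26 to 1.54). Retnla, a secreted product of type 2 inflammation, was at 8.05, 13.8, 10.5, 47.5 and 25.3 CPM with dust against 31.9, 64.3, 79.5, 58.7 and 35.04 CPM with air, where dust rat 47 lay inside the air range (-1.36, -2.59 to -0.12). Alox15 had -0.32 (-0.70 to 0.06). Proliferation genes were balanced, with 14 of 29 above 0 and Ccnb2, a mitotic cyclin, at -1.02 (-1.86 to -0.19).

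Matrix genes, read for early fibrosis, had 20 of 25 above 0 and a median of 0.06. Dcn, the collagen-binding proteoglycan decorin, was at 172, 289, 139.97, 222 and 153 CPM in dust rats and 114, 97.8, 130.03, 136 and 91.1 CPM in air rats. Every dust rat lay above every air rat, and dust rats 44 and 47 well above the other 8 (0.78, 0.14 to 1.41). With the cardiac score as a covariate its log2 fold change was 0.36. Fbln1, of elastic fibres, was at 191, 219, 181, 234 and 190.02 CPM with dust against 164, 156, 159, 195 and 145 CPM with air, with air rat 37 inside the dust range. Sparc, a matrix glycoprotein, had 0.18 (-0.05 to 0.42). Among 21 TGF-beta and fibrosis genes, all intervals lay between -1 and 1, with -0.30 (-0.56 to -0.03) for Thbs1, an activator of latent TGF-beta, and 0.27 (-0.01 to 0.55) for Tgfb3. Of 19 smooth muscle genes 18 lay above 0, with a median of 0.15. Kcnmb1, a subunit of the calcium-activated potassium channel, was at 4.67, 4.86, 3.899, 5.95 and 4.63 CPM with dust and 2.83, 2.01, 3.56, 2.71 and 4.08 CPM with air, and overlapped through air rat 39 (0.65, 0.18 to 1.12). Pln, which heart muscle also expresses, had 0.81. With the cardiac score as a covariate it had 0.00, but Pln is itself part of that score, so the fall is largely built in. Myl9 had 0.15 (-0.08 to 0.39).

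**Figure D4:**
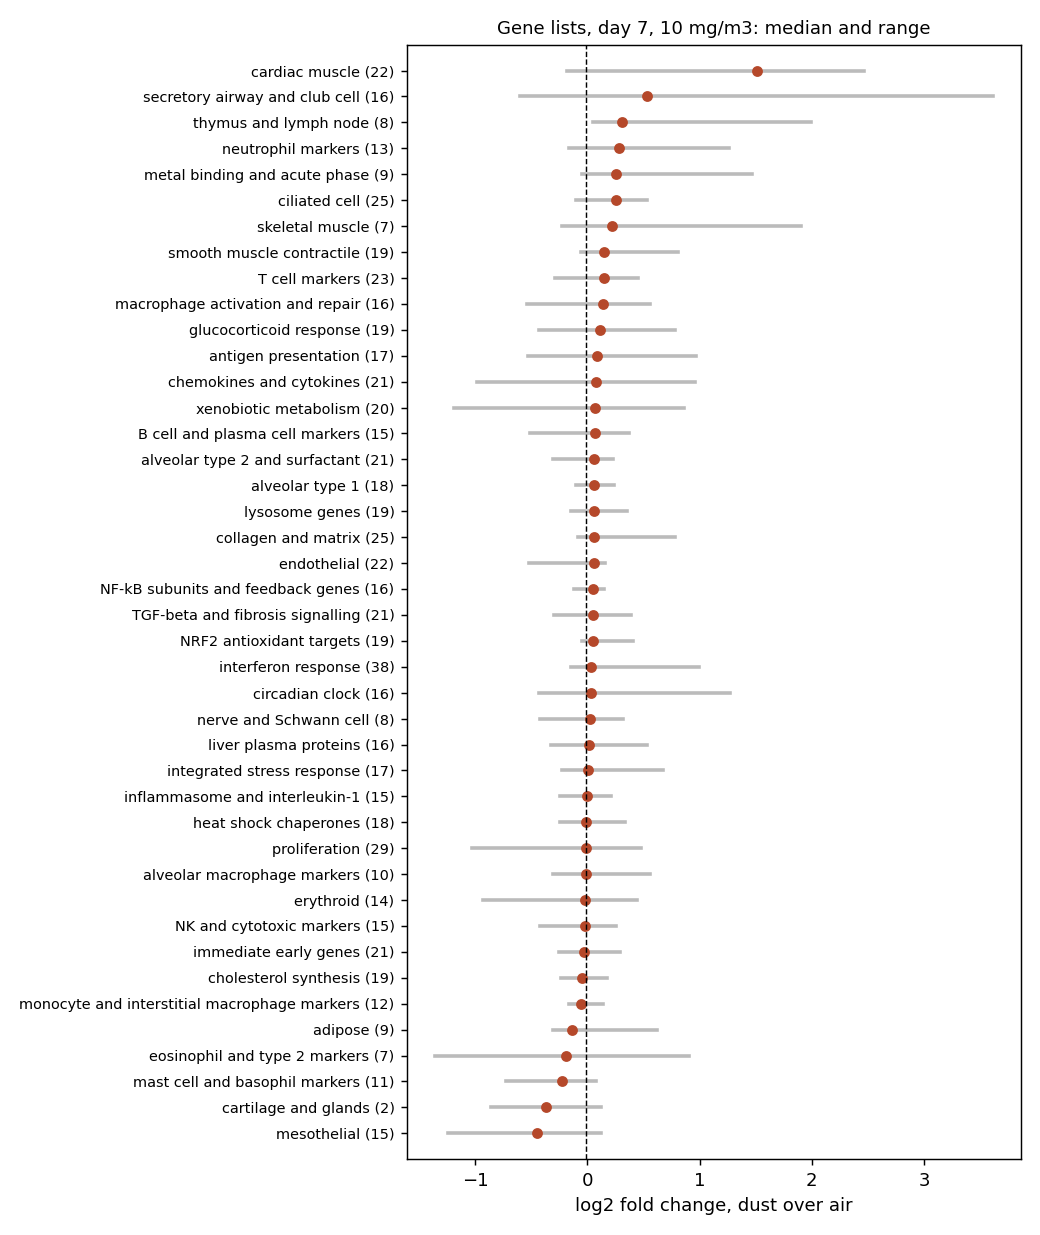
Median (point) and range (line) of the log2 fold change of dust over air for the tested members of 42 gene lists, with the number tested in brackets and the median of all genes as a dashed line. Cardiac muscle (1.51) and mesothelial genes (-0.45) are at the ends, and 0 genes passed in any list.

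The 10 libraries differed most in heart muscle transcripts, widely among dust rats and mainly through rat 37 among air rats. The first principal component of the 1000 most variable genes held 37.6% of the variance. Of its 50 leading genes, 18 were on the cardiac muscle list. Dust rats lay at -6.77 to 20.8 on it, and air rats at -16.3 to -10.4 apart from rat 37 at 19.1, so it ran partly along the groups. Myh6, a cardiac myosin heavy chain, was at 8.17, 184, 35.5, 426 and 134 CPM in dust rats and 0.246, 0, 0.431, 289.9 and 6.24 CPM in air rats. Myl7, the atrial light chain, was at 3.62, 71.8, 19.8, 110.4 and 38.9 CPM with dust and 0, 0, 0.215, 77.1 and 1.81 CPM with air. Dust rat 47 and air rat 37 were the highest of their groups for both genes, and air rats 33, 34 and 36 had almost none. Summed over the 27 listed genes, the level ran from 207 to 2210 CPM in dust rats (median 658) and from 175 to 1448 CPM in air rats (median 219). The rat pulmonary veins carry a sleeve of atrial-type muscle, so transcripts of lung vessels and of adjoining heart cannot be told apart here.

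Of 22 cardiac genes tested, 21 had a log2 fold change above 0 and the median was 1.51. Of the 22, 0 passed and 1 had an unadjusted p under 0.05, beside 3.96% of all genes. That member, the fatty acid binding protein Fabp3, was at 0.934, 9.08, 2.82, 19.7 and 4.77 CPM in dust rats and 0.123, 0.671, 0.539, 5.74 and 1.13 CPM in air rats (2.28, 0.12 to 4.44), and the small muscle protein gene Smpx had 2.005 (-0.34 to 4.35). No cardiac gene had an interval between -1 and 1. The median was 0.65 without dust rat 47 and 3.43 without air rat 37, and 0 of all genes passed in either fit. With the mean log2 level of the list itself as a covariate the median was 0.01. That value is largely built into the fit, because the members were adjusted for their own mean, and no conclusion is drawn from it. Mesothelial genes, of the pleural covering, lay on the other side: 2 of 15 were above 0, with a median of -0.45. Upk1b, a uroplakin of mesothelium, was at 8.75, 3.403, 5.65, 3.49 and 9.11 CPM with dust and 12.7, 9.66, 26.3, 2.55 and 10.3 CPM with air. The transcription factor Wt1 was at 1.98, 0.486, 0.672, 0.259 and 1.302 CPM with dust and 3.94, 1.48, 3.77, 0.319 and 1.701 CPM with air. The lowest Wt1 levels were in dust rat 47 and air rat 37, the rats of most cardiac RNA (-1.24, -2.42 to -0.06). Krt18, a keratin also of lung epithelium, had -0.22 (-0.45 to 0.01). With the cardiac score as a covariate the mesothelial median was 0.03. The cardiac score itself was 0.94 to 4.14 in dust rats and -0.10 to 0.66 in air rats, apart from 3.33 in air rat 37. Because the score differed between the groups in this way, the fits with it as a covariate cannot tell these transcripts apart from dust. Their part in the gene differences above was not tested otherwise.

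**Figure D5:**
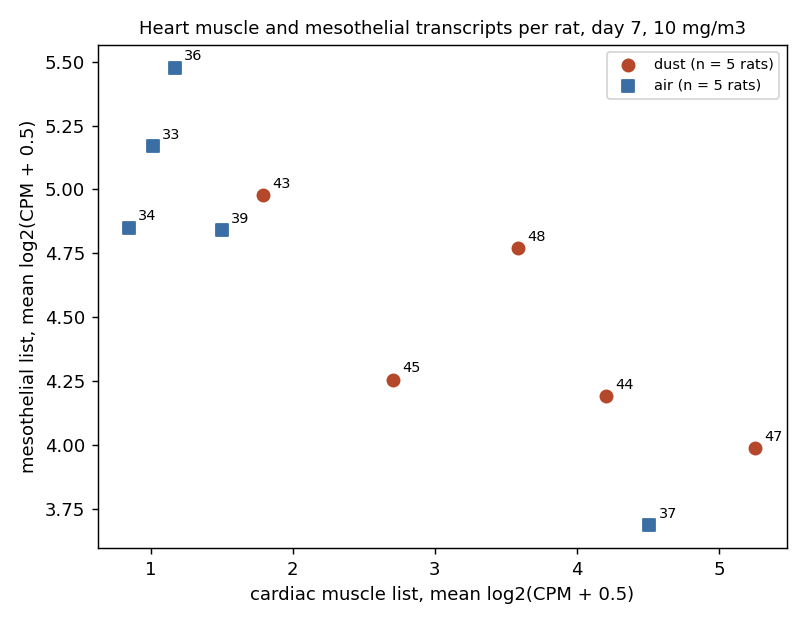
Mean log2(CPM + 0.5) of the tested mesothelial genes (y axis) against that of the tested cardiac muscle genes (x axis) for each rat, labelled by rat number. Air rat 37 and dust rat 47 are lowest for mesothelial and highest for cardiac genes, while air rats 33, 34, 36 and 39 sit at the low cardiac end.

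The 12 genes with the largest spread within groups, among those averaging at least 5 CPM, were Myh6, Myl7, Ly6al, Myl4, Mb, Scgb3a1, Actn2, Mybpc3, Fam111a, Tnnt2, Tnni3 and Cd300lg. Most encode heart muscle proteins, but 2 were either high or low by rat and not by group. Ly6al was at 0.934, 0.648, 0.134, 31.3 and 0.289 CPM in dust rats and 31.9, 0.805, 0.323, 0.478 and 0.454 CPM in air rats, high in dust rat 47 and air rat 33 only. Fam111a was at 80.6, 4.38, 5.78, 7.77 and 76.2 CPM with dust and 77.7, 8.32, 9.804, 5.58 and 4.65 CPM with air, high in dust rats 43 and 48 and air rat 33. Cd300lg, an endothelial receptor, was at 12.7, 20.1, 8.47, 3.88 and 18.8 CPM with dust and 15.2, 18.2, 16.5, 0.159 and 25.2 CPM with air, and near 0 in air rat 37 alone.

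The day 7 effect was also set against those of the other groups by tests of the difference. Against day 1, 0 of 15668 genes passed (522 at an unadjusted p under 0.05, 3.33%), and against day 27, 0 passed (629, 4.01%). On their own, the same fit called 20 genes on day 1, 12 higher and 8 lower, and 0 on day 27; that 20 genes passed on one day and 0 on another does not show a difference. The smallest p between day 7 and day 1 were those of Susd5 (3.17), Oas1k (1.47) and C1H19orf84 (1.67) on one side and Bhlhe40 (-0.52), Tspan15 (-0.62) and Cd151 (-6.11) on the other. Bhlhe40, the clock repressor that is the partner of Bhlhe41, was at 33.8, 32.7, 27.4, 38.3 and 39.6 CPM in dust rats and 36.2, 34.8, 34.2, 39.5 and 32.4 CPM in air rats on day 7 (-0.04, -0.21 to 0.13), against a log2 fold change of 0.48 on day 1. Cd151 was at 0.467, 0.486, 1.08, 0.388 and 0.145 CPM with dust and 0.123, 9.26, 0, 13.5 and 0.567 CPM with air, high in air rats 34 and 37 only. Against day 27 they were Gpr97 (1.32), Tnfaip2 (0.56) and Pxmp4 (0.54), and Polg2 (-0.97), Gin1 (-0.71) and Dlg3 (-0.47).

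Between the doses on day 7, 0 of 16190 genes passed in edgeR, and 1298 (8.02%) had an unadjusted p below 0.05. In DESeq2 the number called was 14, and without air rat 37 of the 10 mg/m3 study edgeR called 67. Of these, 61 had a more positive effect at 10 mg/m3 and 17 were on the cardiac list of 27 genes. Without air rat 68 of the 30 mg/m3 study it called 6. The cardiac list had a median log2 fold change of 1.51 at 10 mg/m3 and of -2.13 at 30 mg/m3. At 30 mg/m3, 24 of 24 tested members were below 0 and 3 passed, beside 10 of all 15551 genes tested there, each lower with dust. For the difference between doses 0 of the 24 passed. Myom2, a sarcomere protein, had 2.72 at 10 mg/m3 and -2.64 at 30 mg/m3, and Fndc5 0.75 and -1.60. Rxfp1, the relaxin receptor, was at 0.467, 1.94, 0.672, 1.81 and 0.868 CPM in dust rats and 0.246, 0, 0, 0.478 and 0.227 CPM in air rats of the 10 mg/m3 study. That was too low for the test within this study. Its difference between doses was tested in the fit of both studies and did not pass. On the other side were Zfp846 (-0.27 at 10 and 0.22 at 30 mg/m3), Dlg3 (-0.36 and 0.10) and the mast cell protease gene Mcpt10 (-0.84 and 0.99). For Dlg3, with the smallest p of the day 7 comparison, the difference between doses was -0.46 (-0.67 to -0.25; adjusted p = 0.111, edgeR).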

How the data were processed

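Lung RNA of 64 rats in 12 groups was sequenced, and the 10 libraries of day 7 at 10 mg/m3 are reported. The authors deposited whole-number read counts per gene symbol, 1 table per study, without normalization. HISAT2 2.1.0, HTSeq 0.6.1, Trimmomatic 0.35, bcl2fastq 2.19 and SAMtools 1.8 are named, with Rnor_6.0, per the submitters' processing notes. No annotation release or strand setting is given there, which leaves counts of overlapping and antisense genes uncertain. Samples were grouped by the treatment and day labels. Each title number was taken as 1 rat, and whether p-values reflect separate animals rests on those titles alone. Each pair of libraries within the day 7 groups differed by more than counting noise (lowest chi-square over its degrees of freedom 4.23).

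The 28 libraries of the 10 mg/m3 study entered 1 fit in edgeR 4.0.16 (R 4.3.3), with TMM factors, filterByExpr (minimum count 10, minimum total 15), robust quasi-likelihood F tests and Benjamini-Hochberg adjustment at 0.05, two-sided. The 10 minus 30 mg/m3 difference used 1 fit of all 64 libraries. Intervals are pointwise, at 95%, from the standard error and the t quantile. Library totals ran from 3420235 to 12359518 counts over the series, and the common biological coefficient of variation was 16.1%; intervals cover the spread between rats. Levels between genes are not per length. DESeq2 1.42.0 and limma 3.58.1 (voom), other scalings and filters, covariates and left-out rats were tried. The fits were tested on simulated data. Promoter windows are from RefSeq, GRCr8; 19073 of 30045 symbols were found there by symbol. Genes were named by rule: the 10 smallest p each way, a panel of 8, up to 3 smallest p per list, the 12 largest spreads, 3 smallest p each way per difference and 6 tissue markers, with exceptions stated; some genes that the rule picks are not reported here. The groups, the 42 lists and the tests were chosen with earlier results of these data known.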

Additional observations from a re-analysis of the deposited data

Results flagged for a closer look

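Within groups of 5 rats, the gap between 1 rat and its nearest neighbour exceeded the 95% critical value of Dixon's test (0.71 of the group's range) in 32 of 268 groups of values examined, where chance alone flags about 1 in 20 groups of unselected, independent values. The genes examined include those named for a large spread and cardiac genes that vary together, so that rate does not apply to this count. Dust rat 44 stood apart in the dust group for airway genes, at 121 CPM for Scgb3a1 and 23.3 CPM for Bpifa1. The same rat stood apart for Susd5 at 4.38 CPM. Marco was also flagged there, at 0.162 CPM against 0 in the other dust rats, a level too near 0 to set that rat apart. Dust rat 47 stood apart for Ly6al at 31.3 CPM and Fndc5 at 3.49 CPM, and dust rat 48 for Glb1 at 47.9 CPM and Tapbp at 139.6 CPM. Air rat 37 gave most of the values past it. Its levels were 289.9 CPM for Myh6 (next highest air rat, 6.24 CPM), 77.1 CPM for Myl7, 32.7 CPM for Myl4, 31.6 CPM for Tnnt2, 27.7 CPM for Tnni3 and 21.997 CPM for Mybpc3. It was also the highest air rat for Actn2 (14.2 CPM), Mb (11.5 CPM), Fabp3 (5.74 CPM), Smpx (4.304 CPM), Myom2 (6.38 CPM) and Fndc5 (1.59 CPM). The same rat led the air group in its cardiac muscle score of 3.33 (mean log2 CPM with a prior count of 2, over every listed gene with a count, a different scale from the plot of cardiac against mesothelial genes), its mitochondrial ribosomal RNA share of 4.43%, its share of counts on the 10 largest genes of 9.43%, and the airway genes Scgb3a1 (14.03 CPM), Bpifa1 (2.23 CPM) and Ccdc40 (24.1 CPM). Air rat 36 was apart for Spp1 at 20.04 CPM, Ftl1 at 129 CPM and Ager at 1529 CPM. Air rat 33 was apart for Ly6al at 31.9 CPM and Fam111a at 77.7 CPM, and air rat 34 was the lowest for Thtpa at 22.7 CPM.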

How the results depend on the processing

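For dust against air on day 7 at 10 mg/m3, 0 genes passed under every alternative run: DESeq2, limma voom, library totals, DESeq2 size factors in edgeR, no filter, a minimum of 1 CPM, no robust estimation, only the groups compared, all 64 libraries in 1 fit, a cardiac score or mitochondrial ribosomal RNA share as covariate, and each of the 10 rats left out. The differences from day 1 and day 27 also stayed at 0. Between doses the count was 0, but 2 with only the groups compared, 14 with DESeq2, and 0 to 67 with 1 rat left out; the cause was not tested. For dust against air on day 7 at 10 mg/m3, 126 genes were followed. Of these, 9 changed sign under some alternative, and none passed in that comparison under any. Signs changed with the cardiac covariate for Hmox1 (0.00179), Tnni3 (-0.19) and Cd300lg (1.09), of which Tnni3 is itself part of the score. Signs also changed with the mitochondrial covariate for Hmox1 (0.0144), Cd300lg (0.0288) and Pecam1 (-0.00685). Further changes came with voom for Hmox1 (0.0466) and Cd300lg (0.25), and with a minimum of 1 CPM for Ly6al (0.0068). With 1 rat left out, log2 fold changes ran from -0.0655 to 0.33 for Cxcl1, -0.16 to 0.25 for Hmox1, -0.0157 to 0.85 for Spp1, -0.75 to 0.0898 for Mmp12, -0.0957 to 0.0313 for Bhlhe40, -3.70 to 3.71 for Ly6al and -0.0556 to 0.0963 for Pecam1. The dust minus air difference in Alb ran from -10.7 to 20.3 CPM, and in the share of the 10 largest genes from -0.199 to 0.626 percentage points, and in mitochondrial ribosomal RNA from 0.193 to 1.19 points, with no call in any. No paired analysis was possible because each rat has a title number of its own and the groups share none. With 1 rat left out, list medians ran from 0.17 to 0.38 for neutrophil markers, 0.31 to 0.70 for secretory and 0.17 to 0.36 for ciliated cells, -0.02 to 0.20 for B cells and -0.63 to -0.23 for mesothelium. No alternative changed the depth; intervals were widest among genes under 1 CPM.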

Other observations

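Xenobiotic metabolism genes, many of them active in club cells, had 12 of 20 members above 0 and a median of 0.07, and 0 passed. An unadjusted p under 0.05 was found for 3 of the 20, 2 higher and 1 lower with dust, beside 3.96% of all genes. The smallest p of the list was that of Abcb1b, described above, at -1.19. Another member, Por, the electron donor of cytochromes P450, was at 131, 139.5, 134, 151 and 154 CPM in dust rats and 104, 104, 106, 125 and 137 CPM in air rats. Dust rats 43 and 45 lay inside the air range, below air rat 39. The log2 fold change was 0.30 (0.02 to 0.58). Cholesterol synthesis genes were balanced, with 8 of 19 above 0, a median of -0.05 and all 19 intervals between -1 and 1. Endothelial genes had 17 of 22 above 0 with a median of 0.06, and 20 of the 22 intervals lay between -0.5 and 0.5.

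Thymus and lymph node genes had 8 of 8 tested members above 0 with a median of 0.31, and 0 passed. The median was -0.02 without dust rat 44, 0.58 without air rat 33, and 0.09 with the cardiac muscle score as a covariate. Rag1, the recombinase of developing lymphocytes, was at 4.43, 1.13, 2.69, 0.259 and 0.578 CPM in dust rats and 0.492, 0.134, 0.323, 1.12 and 0.3402 CPM in air rats. Dust rats 43, 45 and 44 were the highest of the 10, and dust rats 47 and 48 lay inside the air range (1.99, 0.42 to 3.57). Erythroid genes, read as a sign of blood in the tissue, had 6 of 14 above 0 and a median of -0.02, and liver plasma protein transcripts 8 of 16 and a median of 0.01, which was 0.45 without air rat 33. Skeletal muscle genes had 5 of 7 above 0 with a median of 0.22, and adipose genes 3 of 9 with a median of -0.14. Glucocorticoid-induced genes (15 of 19 above 0, median 0.12), immediate early genes (9 of 21, median -0.03), natural killer and cytotoxic markers (7 of 15, median -0.02) and nerve and Schwann cell genes (6 of 8, median 0.02) held 0 genes that passed.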
